A study of Glycine max with 12 samples.

Results

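Transcript levels were compared between soybean (Glycine max) seed libraries of a line edited in a chromosome 20 gene, the Gm20 single mutant, and of the cultivar WT Thorne, which carries no edit, both labelled R5. The 2 single mutant and 2 Thorne R5 libraries were chosen by their titles and make up 4 of the 12 libraries in the series. The other R5 libraries are 2 of a Gm20/Gm10 double mutant, which carries the chromosome 20 edit and an edit of its paralog on chromosome 10, and they enter the fits to measure the spread between libraries. All plants were field-grown, and each RNA sample pooled seeds from 3 to 5 plants. Whether the replicates of a genotype were grown or harvested apart is not stated, so a p-value here reflects only library-to-library spread, part or all of which could be technical. The labels do not say how many independent edited lines the single mutant stands for.

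Growers use R5 for the stage at which seeds begin to fill. From then on the embryo lays down storage protein and oil, which trade off against each other in many soybean lines. The chromosome 20 locus is the major seed protein locus of the crop, and the gene assigned to it belongs to the CCT domain family, whose members include regulators of flowering time and of the response to light. In seed extracts of this kind, fewer cells of a type and less RNA per cell cannot be told apart.

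The 6 R5 libraries held 26966329 to 34626177 counts each, with 41393 to 42721 genes detected per library, and 37058 genes passed the filter on low counts. The files give gene IDs without names, and none of the 56044 IDs (0 matches) appeared in the reference table of 59048 genes, so genes are given by ID and no role can be stated. For the same reason 0 of 27 gene lists defined by product description could be filled, and the seed label could not be checked against marker genes. The number after the prefix of an ID is its chromosome.

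The libraries did not group by genotype. The spread between libraries was taken as the SD of the log2 ratio over 18856 abundant genes (a mean of at least 10 CPM, the count scaled to a common library size, and at least 20 counts in every R5 library). It was 0.638 between the single mutant replicates, with 9.97% of these genes more than 2-fold apart, and 0.341 between the Thorne replicates, with 1.9% more than 2-fold apart. Single mutant replicate 2 lay closest to double mutant replicate 1, at an SD of 0.124, with 0.0689% of genes more than 2-fold apart. Single mutant replicate 1 lay closest to Thorne replicate 1, at 0.355, and was 0.497 from Thorne replicate 2. Single mutant replicate 2 stood 0.682 from Thorne replicate 1 and 0.89 from Thorne replicate 2. The double mutant replicates were 0.636 apart, and double mutant replicate 2 lay 0.203 from Thorne replicate 1. Whether single mutant replicate 2, double mutant replicate 1 or any other library carries the right label was not tested. Every single mutant mean, fold change and call below includes single mutant replicate 2 as labelled unless replicate 1 is given alone. The double mutant libraries also enter the fits as labelled.

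**Figure D1:**
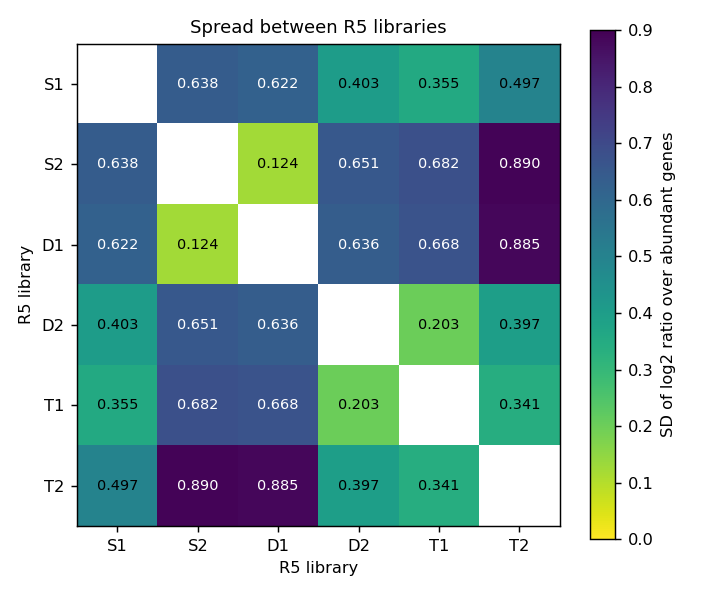
SD of the log2 ratio between each 2 of the 6 R5 libraries over 18856 abundant genes; S is the single mutant, D the double mutant and T Thorne, and the digit is the replicate. The smallest value, 0.124, joins S2 and D1, while S1 and S2 stand 0.638 apart and T1 and T2 0.341.

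The edited gene had almost no counts in these libraries, so its own level could not check the labels. Glyma.20G085100, the ID taken from background knowledge of the locus because the labels name no ID, had 3 and 0 counts in the single mutant libraries and 1 and 2 counts in the Thorne libraries. The exact 95% Poisson intervals, which cover counting error only, reach 8.77 and 3.69 counts in the single mutant and 5.57 and 7.22 in Thorne, so all 4 overlap. The paralog, Glyma.10G134400, which the single mutant line is not labelled as carrying an edit in, had 1 and 0 counts in the single mutant and 0 in each Thorne library. Neither passed the filter on low counts, and a difference was not detectable at this depth. An edit that changes the protein need not change the count.

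No gene was called between the single mutant and Thorne by the quasi-likelihood test of edgeR at a Benjamini-Hochberg adjusted p under 0.05 (0 of 37058, 0%), and the smallest adjusted p was 0.585. At an unadjusted p under 0.05, edgeR had 1074 genes higher (2.9%) and 961 lower (2.59%) in the single mutant, 2035 in all. limma voom also called 0, with 2909 genes at an unadjusted p under 0.05. DESeq2, run on the same 6 libraries, called 75 genes, 27 of them higher (0.0724% of the 37298 genes with an adjusted p) and 48 lower (0.129%), and had 3414 genes at an unadjusted p under 0.05. Leaving out Thorne replicate 2 reduced the DESeq2 calls to 7 (4 higher, 3 lower), and leaving out Thorne replicate 1 gave 127 (21 higher, 106 lower). Leaving out single mutant replicate 1 gave 453 (185 higher, 268 lower), and leaving out single mutant replicate 2 gave 60 (22 higher, 38 lower). The balance turned when double mutant replicate 1 was left out, with 445 calls (296 higher, 149 lower), and when double mutant replicate 2 was left out, with 467 (327 higher, 140 lower). It also turned on the 4 libraries alone (341 higher, 173 lower) and with the replicate number as a block (63 higher, 48 lower). The fit without the closest R5 pair, single mutant replicate 2 and double mutant replicate 1, is not used for the balance. There single mutant replicate 1 stood alone and only the Thorne pair measured the spread. The larger number of lower calls thus depended on the libraries and terms in the fit. In what follows, log2 fold changes and SEs are those of edgeR unless DESeq2 is named as their source.

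The 27 genes called higher by DESeq2 had log2 fold changes of 1.28 to 9.44 in the edgeR fit, with a median of 3.22, against a median of 0 over all genes tested. All 27 had both single mutant libraries above both Thorne libraries, but in 12 of them the single mutant libraries were more than 2-fold apart. In 15 the Thorne libraries lay within 1.5-fold of each other, and in 9 both pairs did.

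Glyma.01G142400 had the smallest adjusted p among genes called higher. It reached 60.3 and 69.8 CPM in the single mutant libraries, against 18.6 and 20.6 CPM in the Thorne libraries. Both pairs were tight and did not overlap, at 3.08 and 3.56 times the Thorne mean in replicates 1 and 2. Its log2 fold change was 1.73 (SE 0.175), with an adjusted p of 3.6e-11 by DESeq2 and 0.585 by edgeR (unadjusted p = 8.71e-05). DESeq2 also called it from replicate 1 alone, at a DESeq2 log2 fold change of 1.64 (SE 0.34, adjusted p = 0.00257), and from replicate 2 alone, at 1.86 (SE 0.34, adjusted p = 0.000209). It remained called by DESeq2 without Thorne replicate 2, at an adjusted p of 0.0331. Its level was 58.3 and 64.5 CPM in the double mutant.

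Glyma.20G158500 followed, with 18.6 and 6.71 CPM in the single mutant libraries, against 1 and 0.328 CPM in the Thorne libraries. The groups did not overlap, though the single mutant libraries differed from each other almost as the Thorne libraries did. Its log2 fold change was 4.25 (SE 1.01), with an adjusted p of 0.0017 by DESeq2 and 0.585 by edgeR. In the double mutant it had 5.62 and 1.22 CPM.

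Among genes higher in the single mutant, with a mean of at least 2 CPM and an unadjusted edgeR p under 0.05, those with the highest fold changes were near zero in Thorne. Glyma.08G009900 had 26.7 and 63.6 CPM in the single mutant libraries, against 0.0313 and 0.0895 CPM in the Thorne libraries, which are 1 and 3 counts. The ratio of the summed levels was 708, with an exact 95% interval for counting error of 276 to 2600. The edgeR log2 fold change was 9.44 (SE 2.49, adjusted p = 0.585), and DESeq2 gave an adjusted p of 0.00198. From single mutant replicate 1 alone DESeq2 gave an adjusted p of 0.241, and from replicate 2 alone 0.0182. The double mutant libraries split, at 56.5 CPM in replicate 1 and 0.737 CPM in replicate 2.

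Glyma.20G246300 showed the same layout, with 8.3 and 27.2 CPM in the single mutant libraries, against 0.0313 and 0.119 CPM in the Thorne libraries, or 1 and 4 counts. Its ratio was 220, with a counting interval of 94 to 679. The log2 fold change was 7.79 (SE 2.49), and it was called by neither tool (adjusted p = 0.121 by DESeq2 and 0.585 by edgeR). From single mutant replicate 1 alone the log2 fold change was 6.7 (SE 2.7, adjusted p = 1 by DESeq2). In the double mutant it had 19.4 CPM in replicate 1 and 0.0737 CPM in replicate 2.

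The 48 genes called lower by DESeq2 had a median log2 fold change of -3.28, which was also -3.28 with the 1 gene at 0 counts in both single mutant libraries set at its bound, and the other 47 ranged from -8.48 to -1.5. All 48 had both single mutant libraries below both Thorne libraries. They also shared a feature within Thorne: Thorne replicate 2 was higher than Thorne replicate 1 in all 48, by 1.56- to 11.1-fold with a median of 3.44-fold, and more than 2-fold higher in 42. Over all 29549 genes with a mean of at least 2 CPM, Thorne replicate 2 was higher in 14501 and more than 2-fold higher in 722. With 0.05 CPM added to each level, the median log2 ratio of the single mutant mean over the Thorne library was -2.09 against Thorne replicate 1 and -3.83 against Thorne replicate 2. For the 27 genes called higher these medians were 3.24 and 3.29. The part of Thorne replicate 2 in the lower calls was not tested beyond leaving it out.

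Glyma.20G116700 had the smallest adjusted p among genes called lower. It had 0.107 and 0.0982 CPM in the single mutant libraries, which are 4 and 3 counts, against 5.95 and 24.5 CPM in the Thorne libraries. The single mutant libraries were level with each other, and Thorne replicate 2 was 4.12 times Thorne replicate 1. The summed level was lower by a ratio of 150, with a counting interval of 72.4 to 373, or 57.7 (27.5 to 145) against Thorne replicate 1 alone, and the log2 fold change was -7.15 (SE 0.924, adjusted p = 3.6e-11 by DESeq2 and 0.585 by edgeR). It was still called by DESeq2 without Thorne replicate 2, at an adjusted p of 0.000142. Double mutant replicates 1 and 2 had 0.0986 and 0.184 CPM.

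Glyma.01G204400 was the more abundant of these genes, with 1.26 and 2.59 CPM in the single mutant libraries, against 46.7 and 173 CPM in the Thorne libraries. Every library of one group was far from every library of the other. The log2 fold change was -5.84 (SE 0.916, adjusted p = 3.6e-11 by DESeq2 and 0.585 by edgeR), and without Thorne replicate 2 it was -4.6, with an adjusted p of 2.04e-05 by DESeq2. The double mutant libraries had 0.887 and 2.54 CPM.

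Among genes ranked by fold change, Glyma.13G051600 had 0 counts in both single mutant libraries, against 74 and 304 counts in the Thorne libraries (2.32 and 9.07 CPM). Measured against a floor of 3 counts per library it was at least 58.0-fold lower in the single mutant, or at least 23.6-fold lower against Thorne replicate 1 alone, with an adjusted p of 1.87e-05 by DESeq2 and 0.585 by edgeR. The double mutant libraries had 0 and 1 count.

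Glyma.12G087200 had 0.0268 and 0.0327 CPM in the single mutant libraries, 1 count each, against 3.54 and 20.3 CPM in the Thorne libraries. Its summed level was lower by a ratio of 412, with a counting interval of 114 to 3410, or 120 (32.5 to 1000) against Thorne replicate 1 alone. The log2 fold change was -8.48 (SE 1.36, adjusted p = 1.49e-06 by DESeq2 and 0.585 by edgeR).

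Glyma.09G238100, included because an earlier account of these data named it, had 0.563 and 1.38 CPM in the single mutant libraries, against 8.52 and 22.6 CPM in the Thorne libraries. The groups did not overlap, and Thorne replicate 2 was 2.65 times Thorne replicate 1. The log2 fold change was -4.01 (SE 0.676, adjusted p = 1.08e-05 by DESeq2 and 0.585 by edgeR). Of the genes described above that DESeq2 called, Glyma.01G142400, Glyma.20G116700 and Glyma.01G204400 were still called without Thorne replicate 2, and Glyma.20G158500, Glyma.08G009900, Glyma.13G051600, Glyma.12G087200 and Glyma.09G238100 were not. In that setting the edgeR log2 values were 3.66 for Glyma.20G158500, 10.32 for Glyma.08G009900, -6.72 for Glyma.12G087200 and -3.14 for Glyma.09G238100. Their sign could not turn there, since the groups did not overlap in these genes.

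**Figure D2:**
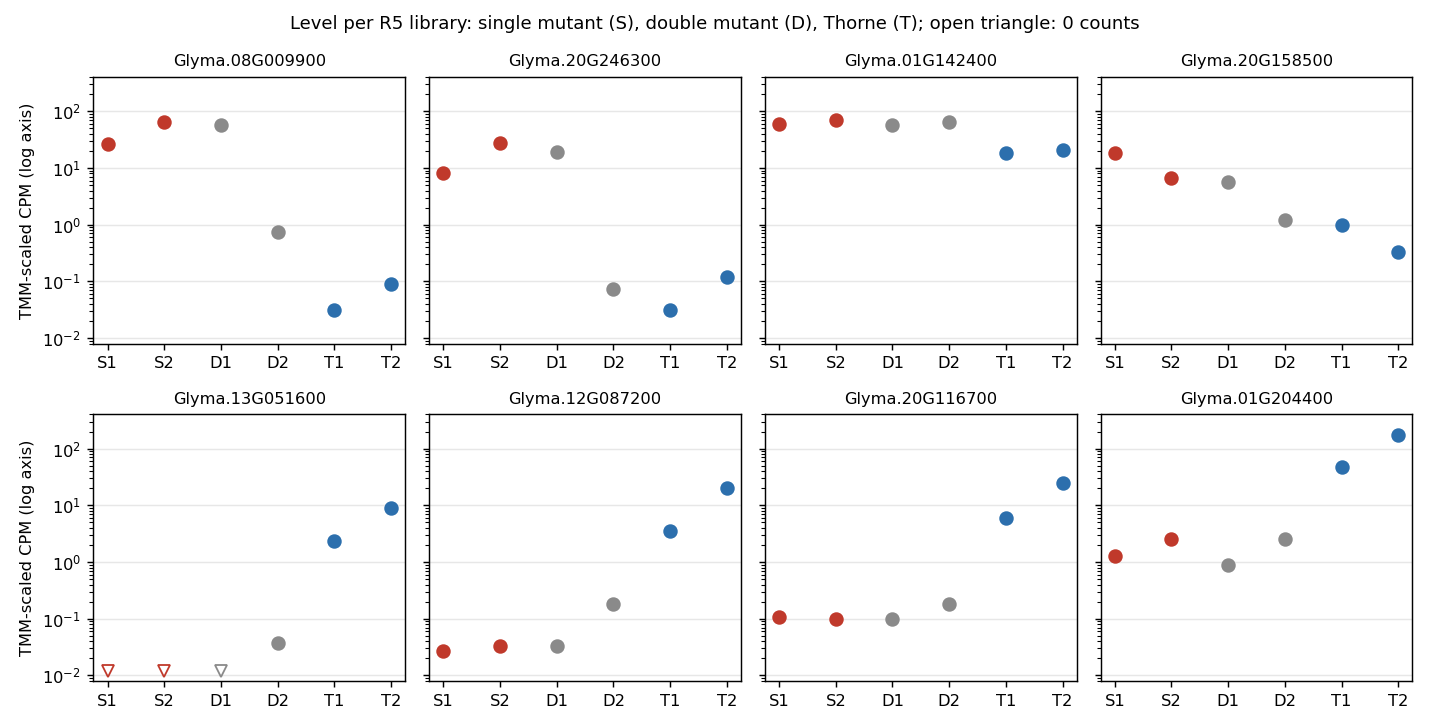
TMM-scaled CPM (log axis) of the 8 named genes in each R5 library, single mutant (S), double mutant (D) and Thorne (T), with 1 point per library and an open triangle for 0 counts. In every panel both S points lie on one side of both T points, and in the lower panels T2 lies above T1.

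**Figure D3:**
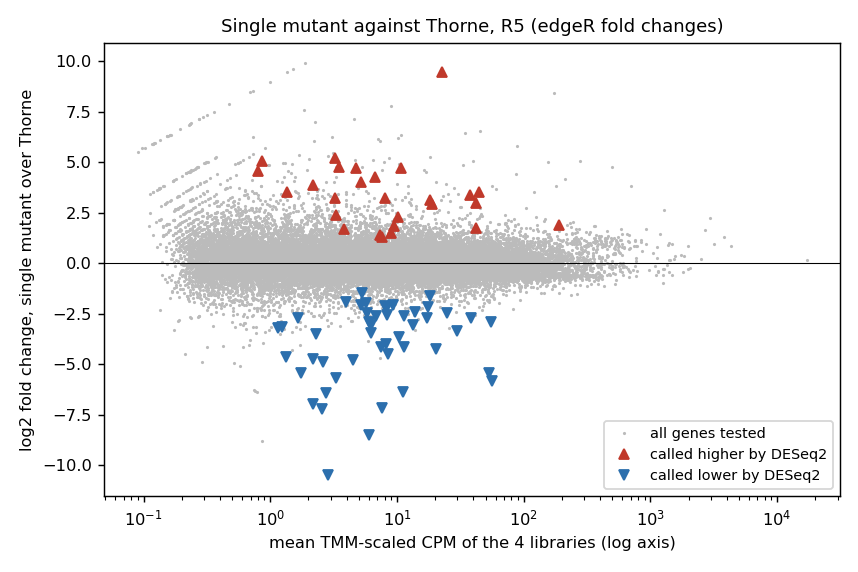
Log2 fold change of the single mutant over Thorne in the edgeR fit against the mean CPM of the 4 libraries (log axis), 1 point per gene tested, with the 27 genes called higher and the 48 called lower by DESeq2 marked. The value at the lowest marked point belongs to a gene with 0 counts in both single mutant libraries and depends on the prior count of the fit.

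On and off patterns were few. Only 3 of 56044 IDs had 0 counts in both Thorne libraries and at least 10 in both single mutant libraries, and 2 had the reverse; they are named here after their values were seen. Glyma.05G230200 had 20 and 12 counts in the single mutant, Glyma.10G287700 had 12 and 26, and Glyma.20G249200 had 12 and 19. In the reverse direction, besides Glyma.13G051600, Glyma.03G201200 had 0 counts in both single mutant libraries, against 14 and 101 in the Thorne libraries.

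Without a model, both single mutant libraries lay above both Thorne libraries for 8210 of 37058 genes (22.2%) and below both for 9470 (25.6%). The excess below depended on how the libraries were scaled, since RLE in place of TMM scaling gave 8815 above and 8854 below. Single mutant replicate 1 lay above and replicate 2 below the Thorne pair for 3456 genes (9.33%), and the reverse held for 3119 (8.42%). For the other 12803 genes (34.5%) at least 1 single mutant library lay between the Thorne libraries or level with one. The balance moved with abundance. Among 4736 genes under 1 CPM, 25.3% lay above and 13.8% below, whereas among 1566 genes over 100 CPM, 17.5% lay above and 40.9% below. The share of genes with an unadjusted edgeR p under 0.05 was 5.05% under 1 CPM and 2.81% over 100 CPM.

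Genes in which both pairs were tight gave a smaller set. With each pair within 1.5-fold, no overlap and a log2 fold change of at least 1 in size, 193 genes were higher and 74 lower in the single mutant. They come from 19664 genes with both pairs within 1.5-fold, of 29549 genes with a mean of at least 2 CPM. With no limit on the fold change, 4385 of the 19664 were higher and 6645 lower without overlap, so the balance turned with that limit.

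The 2 single mutant libraries departed from Thorne to very different extents. Of the 29549 genes, replicate 1 was more than 2-fold above both Thorne libraries in 362 (1.23%) and more than 2-fold below both in 174 (0.589%). Replicate 2 was more than 2-fold above both in 2029 (6.87%) and more than 2-fold below both in 1654 (5.6%). At 4-fold these counts were 49 above and 35 below for replicate 1, and 390 above and 365 below for replicate 2. Replicate 1 lay between the Thorne libraries for 24.3% of genes and replicate 2 for 13.6%.

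**Figure D4:**
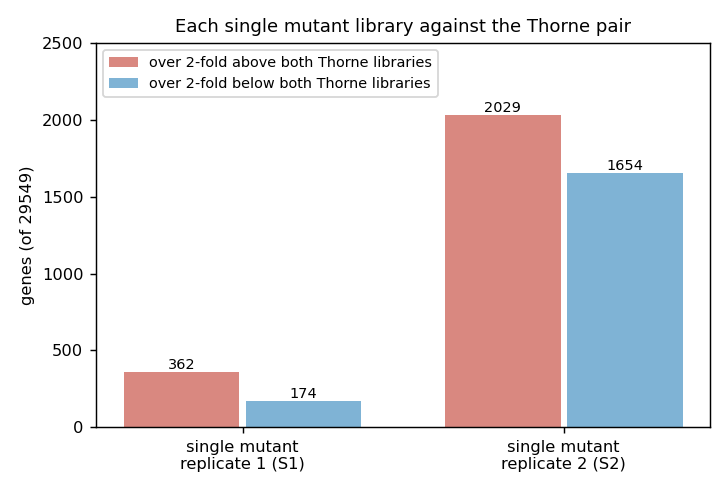
Number of genes, of 29549 with a mean of at least 2 CPM, that were more than 2-fold above or more than 2-fold below both Thorne libraries in each single mutant library. Replicate 1 has 362 above and 174 below, and replicate 2 has 2029 above and 1654 below.

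Tested alone against the Thorne pair, replicate 1 gave 0 calls by edgeR (0%), with 643 genes higher (1.74%) and 403 lower (1.09%) at an unadjusted p under 0.05, 1046 in all. DESeq2 called 57 genes, 20 higher (0.0549%) and 37 lower (0.102%). Replicate 2 also gave 0 calls by edgeR (0%), with 2411 genes higher (6.51%) and 1721 lower (4.64%) at an unadjusted p under 0.05, 4132 in all. DESeq2 called 457 genes from it, 186 higher (0.551%) and 271 lower (0.803%). The 2 tests share the Thorne libraries. In both, the lone library is assumed to vary like the Thorne and double mutant pairs, and the double mutant pair is itself 0.636 apart. When either double mutant replicate was left out, only the Thorne pair was left to measure the spread. In those fits edgeR called many genes for single mutant replicate 2. For single mutant replicate 1 it called only Glyma.08G009900, at log2 fold changes of 8.68 and 8.7. Calls that rest on the gap between 2 Thorne libraries are not read as a result.

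Between the single mutant libraries, replicate 1 against replicate 2, edgeR called 0 genes (0%), with a smallest adjusted p of 0.691, and had 1049 genes higher (2.83%) and 1019 lower (2.75%) in replicate 1 at an unadjusted p under 0.05, 2068 in all. DESeq2 called 26, 17 higher (0.0517%) and 9 lower (0.0274%) in replicate 1. Of the 29549 genes, 3742 (12.7%) differed more than 2-fold between the single mutant libraries, 1648 with replicate 1 higher and 2094 with replicate 2 higher. In Thorne 1168 (3.95%) did.

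**Figure D5:**
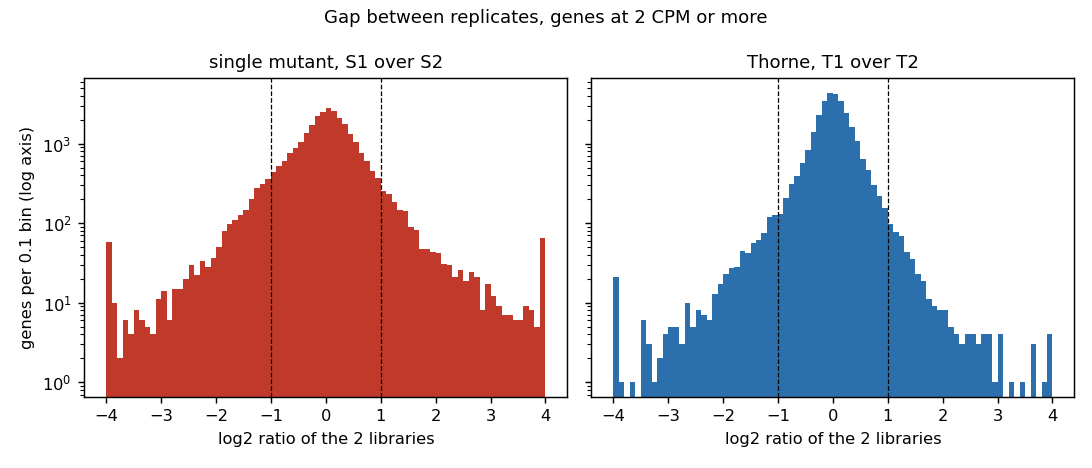
Distribution of the log2 ratio of replicate 1 over replicate 2 in the single mutant (left) and in Thorne (right) over 29549 genes, in bins on a log count axis, with dashed lines at a 2-fold gap and values past the ends drawn in the end bins. The single mutant distribution is wider, with 3742 genes past the dashed lines against 1168 in Thorne.

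The next genes were chosen for Thorne libraries within 1.5-fold of each other and the most extreme ratios between the single mutant libraries. Glyma.12G015100 had 8.49 CPM in single mutant replicate 1 and 0.0982 CPM in replicate 2, against 0.47 and 0.358 CPM in the Thorne libraries. The ratio between the single mutant libraries was 86.4, with a counting interval of 29.3 to 421, and the log2 difference was 6.38 (SE 1.45, adjusted p = 0.0165 by DESeq2 and 0.691 by edgeR). The single mutant libraries thus lay on opposite sides of Thorne, though replicate 2 had only 3 counts, against 15 and 12 in the Thorne libraries.

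Glyma.13G149500 had 6.43 CPM in replicate 1 and 0.0655 CPM in replicate 2, against 5.67 and 7.7 CPM in the Thorne libraries, so that replicate 1 was level with Thorne. The log2 difference was 6.53 (SE 1.62, adjusted p = 0.0165 by DESeq2 and 0.691 by edgeR).

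In the other direction, Glyma.02G014900 had 0.75 CPM in replicate 1 and 70.8 CPM in replicate 2, against 0.846 and 1.01 CPM in the Thorne libraries. The log2 difference of -6.55 (SE 2.8) was not called (adjusted p = 0.451 by DESeq2). Double mutant replicate 1 had 69.6 CPM and double mutant replicate 2 had 1.18 CPM. Glyma.06G022800 had 0.107 CPM in replicate 1 and 7.7 CPM in replicate 2, against 0.125 and 0.0895 CPM in the Thorne libraries, and was not called either (adjusted p = 0.577 by DESeq2). In these genes single mutant replicate 1 was level with Thorne, and single mutant replicate 2 was level with or nearer to double mutant replicate 1.

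The 20 most abundant genes took 7.46% and 6.07% of the counts in the single mutant libraries, against 5.5% and 4.72% in the Thorne libraries. Of the 20, 8 were higher in the single mutant without overlap, 2 were lower and 10 overlapped. Over all genes tested, 22.2% were higher and 25.6% lower without overlap. Among genes over 100 CPM, 17.5% were higher and 40.9% lower. The 20 were chosen for their level, and their balance was not tested. The single mutant libraries were more than 2-fold apart in 8 of the 20 and the Thorne libraries in 1. The most abundant gene, Glyma.07G014500, chosen for its level after values were seen, had 26900 and 9540 CPM in the single mutant libraries, against 17500 and 14800 CPM in the Thorne libraries, which lay between them.

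Near the edited locus no gene was called. Of the 101 IDs from 50 before to 50 after Glyma.20G085100, 54 were tested, and DESeq2 called 0 and edgeR 0. At an unadjusted p under 0.05 edgeR had 3 of these 54, near the share over all genes, 2035 of 37058. Those 3 are given below. Both single mutant libraries were above both Thorne libraries in 10 (18.5%) and below in 23 (42.6%), against 22.2% and 25.6% over all genes. The median log2 fold change was -0.23, against 0 over all genes, and the values ran from -1.47 to 1.82. Glyma.20G081000 had 6.35 and 13.8 CPM in the single mutant libraries, against 3.6 and 2.09 CPM in the Thorne libraries (edgeR log2 fold change 1.82, SE 0.705), and single mutant replicate 1 alone gave 1.16 (SE 0.779). Glyma.20G082500 had 16.2 and 13.5 CPM in the single mutant libraries, against 23.4 and 28.5 CPM in the Thorne libraries (edgeR log2 fold change -0.8, SE 0.245), and replicate 1 alone gave -0.68 (SE 0.315). Glyma.20G081800 had 26.5 and 26.9 CPM in the single mutant libraries, against 34.3 and 40 CPM in the Thorne libraries (edgeR log2 fold change -0.48, SE 0.188), and replicate 1 alone gave -0.49 (SE 0.252). By chromosome, the share of genes at an unadjusted p under 0.05 ran from 4.4% on chromosome 4 to 6.98% on chromosome 17, with 4.46% on chromosome 20.

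The libraries labelled V5 include the same 2 genotypes and share no library with R5. The stages differ widely, and like tissue is not assumed in setting them side by side. Of the 819 genes higher at R5 without overlap, with an unadjusted edgeR p under 0.05 and a mean of at least 2 CPM, 718 were tested at V5, where both single mutant libraries lay above both Thorne libraries in 17.3% and below in 17.8%. Of the 832 lower at R5, 770 were tested at V5, with 15.8% above and 16.1% below. Over all 27984 genes tested at both stages these shares were 17.3% above and 17.3% below. With both V5 replicates, each set thus split almost evenly, as all genes did. With single mutant V5 replicate 1 alone, 32.6% of the genes higher at R5 lay above and 42.2% below the Thorne V5 pair, and 42.7% of the genes lower at R5 lay above and 27.1% below, against 37.1% and 36.8% over all genes. These last shares rest on 1 single mutant library. The other V5 library was not counted alone, so they are not read as a trait of the genotype.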

How the data were processed

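Each library's deposited table holds raw whole-number counts over 56044 IDs. HTSeq, HISAT2 and Bowtie are named, without role or version, per the submitters' processing notes. Not given in the sources used here: build, annotation, strand setting and treatment of multiply matching reads. Hence counts of near-identical paralogs, the edited pair included, are uncertain.

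The deposited counts of the 6 R5 libraries were fitted in R 4.3.3 with edgeR 4.0.16 (TMM scaling, filterByExpr with a minimum count of 10 and a minimum total of 15, quasi-likelihood test, 3 residual degrees of freedom, 2 where each single mutant library was a group of its own). A call is a Benjamini-Hochberg adjusted p below 0.05. DESeq2 1.42.0 and limma 3.58.1 (voom with quality weights) were run beside it, and an adjusted p that DESeq2 left undefined was not counted. An edgeR SE is the size of the log2 fold change, taken without the prior count of the fit, divided by the square root of its F statistic. Levels are TMM-scaled CPM. No molecular identifiers are stated, so intervals and the floor of 3 counts cover counting error only. The code was tested on simulated data.

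Genes were named by 5 rules. The first took the largest fold changes among genes with a mean of at least 2 CPM, no overlap and an unadjusted p under 0.05. The second took the smallest adjusted p of DESeq2. The third took the largest ratio between the single mutant libraries where the Thorne libraries lay within 1.5-fold, and the fourth took genes of the first kind within 50 IDs of the edited gene. Each rule prints up to 2 IDs per direction, and the fourth all 3 that met it. The fifth took the edited pair and 4 genes that an earlier account had named, of which Glyma.01G142400, Glyma.20G116700 and Glyma.01G204400 also met the second rule and Glyma.09G238100 is printed by the fifth alone. The most abundant gene was added for its level. The comparison, rules and lists were chosen with earlier results of these data known. Alternatives were other scaling, filters, tools and library sets, the replicate number as a block and each library left out. The DESeq2 refits, a crossed block, the ratios to each Thorne replicate, single genes against Thorne replicate 1 alone and the set with both pairs tight were added after seeing the data.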

Additional observations from a re-analysis of the deposited data

Results flagged for a closer look

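The difference between the single mutant and Thorne was also compared between R5 and V5 over all 12 libraries, as the R5 log2 fold change minus the V5 one. edgeR called 0 of 38559 genes, with 2645 at an unadjusted p under 0.05, and DESeq2 called 128. Among the genes printed here, 4 stood out by DESeq2. Glyma.07G014500 had a difference of 4.92 (SE 1.41, adjusted p = 2.13e-05 by DESeq2 and 0.7 by edgeR): at V5 it had 12 and 14 counts in the single mutant libraries, against 194 and 304 in the Thorne libraries, while its R5 levels overlapped. Glyma.12G087200 had a difference of -9.15 (SE 2.55, adjusted p = 0.0427 by DESeq2 and 0.7 by edgeR), with 0 and 5 counts in the single mutant V5 libraries, against 2 and 0 in the Thorne V5 libraries; these are too few for a V5 fold change, so the value mostly restates the R5 difference for which the gene was chosen. Glyma.20G116700 had a fitted difference of -10.66 (adjusted p = 0.0304 by DESeq2 and 0.7 by edgeR), with 0 and 2 counts in the single mutant V5 libraries, against 0 in each Thorne V5 library, so the same holds and its size depends on the prior count of the fit. Glyma.09G238100 had a difference of -4.44 (SE 1.13, adjusted p = 0.0475 by DESeq2 and 0.7 by edgeR), with 71 and 26 counts in the single mutant V5 libraries, against 41 and 16 in the Thorne V5 libraries. Its R5 log2 fold change was -4.01, so the difference mostly restates an R5 value of a gene already named from these data.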

How the results depend on the processing

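For the single mutant against Thorne, edgeR called 0 genes under RLE scaling, both other filters, its newer dispersion method, the 4 libraries alone, all 12 libraries, without the closest R5 pair and with any 1 R5 library left out (0 to 0), and DESeq2 called 75. The replicate number as a block gave 0 calls by edgeR and 111 by DESeq2. The deviations of same-numbered libraries correlated across genes at -0.472 between the single mutant and Thorne, -0.779 between the single and double mutant and 0.509 between the double mutant and Thorne, so the numbers were not taken to pair the libraries. A crossed replicate block gave 8 calls by edgeR (5 higher, 3 lower), 3 of them also called by DESeq2. The count of DESeq2 calls ran from 7 to 467 with 1 library left out, and was 165 without the closest R5 pair and 514 on the 4 libraries alone, with 341 higher and 173 lower. For single mutant replicate 1 alone DESeq2 called 57, edgeR 0 to 1 with 1 library left out, and 2 when fitted with the Thorne libraries only. For replicate 2 alone DESeq2 called 457, edgeR 0 to 3348 with 1 library left out, and 2965 with the Thorne libraries only. Between the single mutant libraries DESeq2 called 26, and edgeR called 0 with any 1 library left out (0 to 0). Counts without overlap stayed within 1.5 times under 4 alternatives, at 7142 to 9359 above and 8854 to 10436 below. Their balance did not hold: it was nearly even under RLE scaling (8815 above, 8854 below) and 7142 above and 9578 below on library totals. All 17 genes refitted kept their sign in 249 refits, which adds little support. Those set against Thorne had no overlap, so leaving out a library could not turn their sign. The refits between the single mutant libraries never left out either of them. Without the filter on low counts, the edited Glyma.20G085100 had a log2 fold change of -0.09 (SE 1.95, edgeR adjusted p = 1) and Glyma.10G134400 an edgeR adjusted p of 0.761. The cause of these movements was not tested.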
